A study of Mus musculus with 4 samples.

Results

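The 9 genes described here carry the interferon signal from its ligand to the nucleus: the ligand gene Ifnb1, the receptor chains Ifnar1 and Ifnar2, the kinases Jak1 and Tyk2, the transcription factors Stat2, Irf9 and Irf1, and the feedback inhibitor Socs1. They were taken by gene symbol from a table of 49585 genes, and all 9 were found. RNA was sequenced from murine 4T1 cells, a triple–negative mammary carcinoma line. A pair of lines, each grown from 1 single cell by limiting dilution, represented highly metastatic (4T1–HM) and lowly metastatic (4T1–LM) cells. Each line was cultured for 48 h either with 50 μmol/L of deferasirox (DFX, an iron chelator) or with the same dose of its solvent DMSO, in RPMI 1640 medium with fetal bovine serum. The 4 libraries are named HM_Ctrl, HM_DFX, LM_Ctrl and LM_DFX. Each condition is 1 library and each metastatic class is 1 clone, so there was no replicate check and no p-value is given.

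Type I interferons bind a receptor built from IFNAR1 and IFNAR2, whose intracellular parts hold the kinases TYK2 and JAK1. The kinases phosphorylate STAT proteins, and STAT2 joins IRF9 in the complex ISGF3, which binds interferon–stimulated response elements (ISREs) at antiviral genes. STAT dimers formed after interferon–gamma bind a different element, the GAS, as at Irf1, while SOCS1 binds the kinases and stops the signal. Several components, Stat2, Irf9, Irf1 and Socs1 among them, are themselves known interferon targets.

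Levels are in FPKM, fragments scaled to the exon length of the gene and to the depth of the library, which allows genes of different length to be compared. The FPKM values were turned back into fragments, and the 4 libraries held 16745607, 14363065, 15731519 and 21883853 fragments in the order HM_Ctrl, HM_DFX, LM_Ctrl, LM_DFX. Intervals are exact 95% limits from those fragments. They describe counting error alone and say nothing of how much cultures differ. Fold changes are log2 of the ratio of FPKM + 1, which understates changes of low genes, and a gene is called higher or lower at 2-fold or more. The background is the 12669 expressed genes, those that reached an FPKM of 1 in any of the libraries, and all 9 interferon genes are among them.

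The labelled cell type was checked against marker genes. All 8 epithelial markers were at an FPKM of at least 1 in every library, Epcam between 13.5 and 29.3 among them, and their summed FPKM was 1863 without and 710 with DFX in 4T1–HM cells, and 2449 without and 1210 with DFX in 4T1–LM cells. Krt8 and Krt18, the simple–epithelial keratins, made up most of that sum and were lower in both DFX libraries, Krt8 at 134 against 593 in 4T1–HM cells and at 339 against 963 in 4T1–LM cells. The markers did not all move one way: Ezr, a cytoskeletal linker, was at 221 against 179 in 4T1–HM cells and at 198 against 154 in 4T1–LM cells, and Cldn4 was at 43.2 in both 4T1–LM libraries (both named after their values were seen). Of 14 leukocyte markers only Cd68, a lysosomal gene that is not restricted to leukocytes, reached an FPKM of 1. Its FPKM was 12.9, 37.4, 12.3 and 83.1 in HM_Ctrl, HM_DFX, LM_Ctrl and LM_DFX. The other 13 summed to between 0.0531 and 0.620, with Ptprc, the pan–leukocyte marker, at no more than 0.0139 and 9 or 10 of the 14 at 0. The 4 endothelial markers, Pecam1 among them, summed to at most 0.203. Of 5 fibroblast markers only Pdgfra reached 1, at 2.77 to 5.50, and Col1a1 was at or below 0.998. The lower epithelial marker sum and the higher Cd68 level in both DFX libraries stand beside the interferon genes, and their part in the values below was not tested. In bulk RNA, fewer cells of a kind and less RNA per cell cannot be told apart.

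The promoters of 3 genes with a match to an element that interferon signalling uses are shown, without that of Ifnar2 (match given below). Each is the 250 bases upstream of a RefSeq transcription start in the build GRCm38.p6, read 5′ to 3′ on the gene's own strand, with the match in capitals. The Stat2 window is chr10:128270248-128270497 on the plus strand, the Irf1 window chr11:53769764-53770013 on the plus strand and the Socs1 window chr16:10785537-10785786 on the minus strand.
Stat2: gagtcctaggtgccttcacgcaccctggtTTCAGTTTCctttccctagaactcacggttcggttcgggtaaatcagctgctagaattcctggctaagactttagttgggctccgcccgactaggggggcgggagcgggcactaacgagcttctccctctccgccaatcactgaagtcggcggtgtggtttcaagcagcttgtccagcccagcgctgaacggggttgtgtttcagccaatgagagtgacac
Irf1: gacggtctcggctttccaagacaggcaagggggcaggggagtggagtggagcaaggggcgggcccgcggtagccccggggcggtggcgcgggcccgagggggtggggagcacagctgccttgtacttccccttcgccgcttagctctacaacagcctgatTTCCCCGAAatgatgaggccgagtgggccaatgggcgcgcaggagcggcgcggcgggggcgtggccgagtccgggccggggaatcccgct
Socs1: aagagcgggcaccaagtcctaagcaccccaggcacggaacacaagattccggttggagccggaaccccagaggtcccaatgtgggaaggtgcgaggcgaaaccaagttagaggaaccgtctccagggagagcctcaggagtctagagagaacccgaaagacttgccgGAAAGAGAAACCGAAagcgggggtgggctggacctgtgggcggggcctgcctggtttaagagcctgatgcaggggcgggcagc
The letters searched on both strands were GAAANNGAA for the core of the ISRE and TTCNNNGAA for the core of the GAS, where N is any base. Stat2 held 1 ISRE core, on the strand opposite to the gene, from 221 to 213 bases before the start. Socs1 held 2 overlapping ISRE cores, from 83 to 75 and from 77 to 69 bases before the start. Irf1 held 1 GAS core from 90 to 82 bases before the first of its 2 listed starts. Ifnar2 also held a GAS core, TTCCTGGAA, from 214 to 206 bases before its start. Neither pattern is in the windows of Ifnar1, Jak1, Tyk2, Irf9 (both listed starts), Ifnb1 or the other start of Irf1. Of all 32851 promoter windows of this length, 7.13% hold the ISRE core and 7.02% the GAS core, and a match is a description of letters, not of binding.

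In untreated cells none of the 9 genes differed by 2-fold between the clones on the FPKM + 1 scale, and Ifnar1 and Jak1 had the smallest differences, 0.03 and -0.08 on the log2 scale. Stat2, Irf9 and Tyk2 were higher in HM_Ctrl than in LM_Ctrl by 0.67, 0.58 and 0.52 on the log2 scale, while Socs1, Irf1 and Ifnar2 were lower by -0.84, -0.51 and -0.38. With DFX, Stat2, Irf9, Irf1 and Ifnb1 were at least 2-fold higher in both clones, while the receptor chains, both kinases and Socs1 were not called in either. The call of Socs1 in 4T1–HM cells depends on the settings: its log2 fold change of 0.91 became 1.07 with a pseudocount of 0.1, 1.09 without one and 1.03 with median–ratio scaling of the libraries. Between the treated clones no member differed by 2-fold. Of the 9 members 8 were lower in HM_DFX than in LM_DFX, where 45.0% of all expressed genes were higher. The 8 include Ifnb1, whose ratio of 0.940 (0.606 to 1.44) lies within counting error of equal levels.

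**Figure D1:**
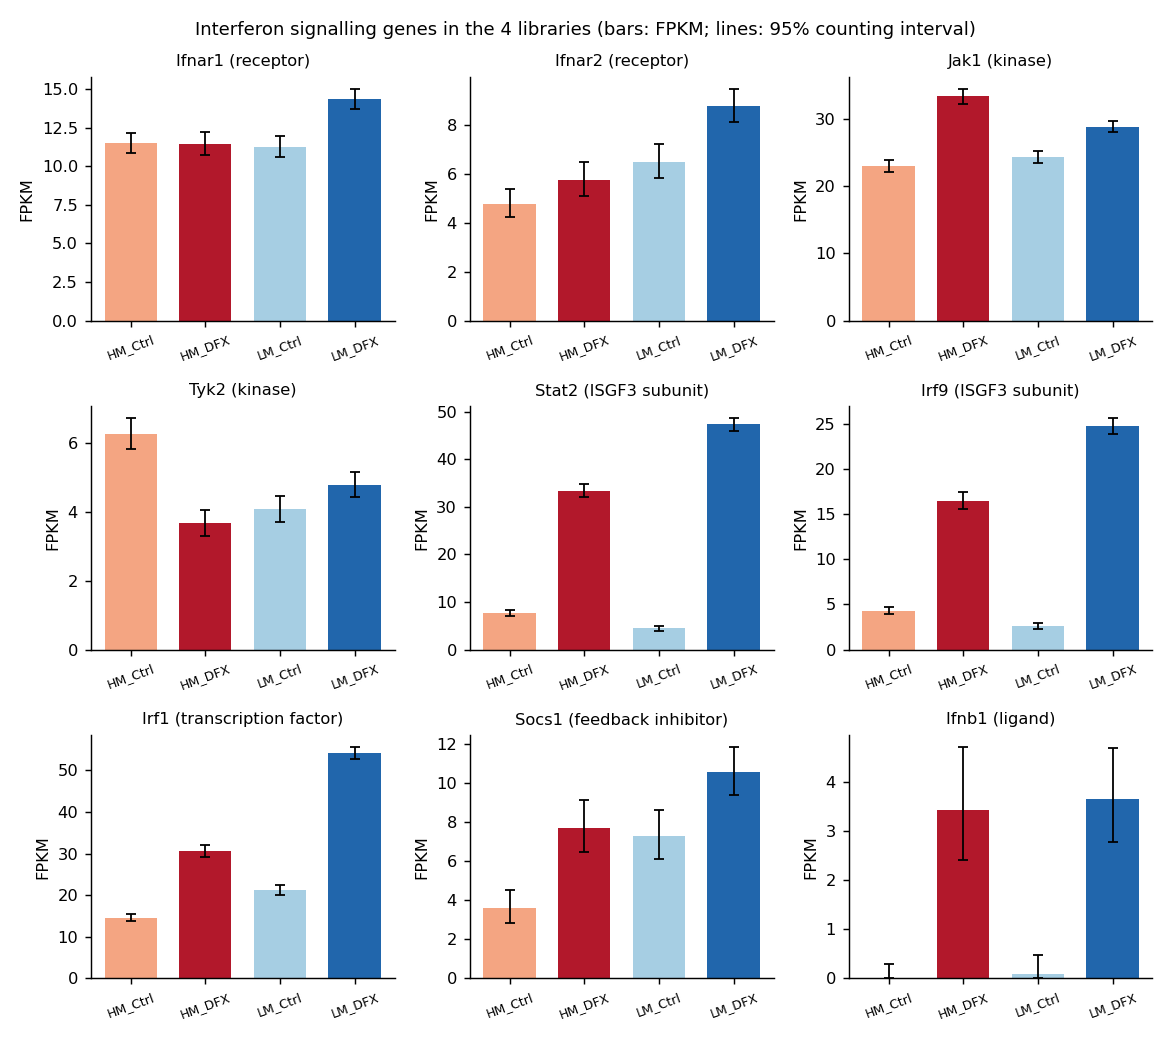
FPKM (vertical axes, each from 0) of the 9 interferon receptor and JAK–STAT genes in HM_Ctrl, HM_DFX, LM_Ctrl and LM_DFX, 1 library each; lines are 95% counting intervals. Stat2, Irf9, Irf1 and Ifnb1 stand higher in both DFX libraries, with Stat2 at 33.4 and 47.3 against 7.67 and 4.45, while Ifnar1 stays between 11.3 and 14.3.

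Ifnb1 (ENSMUSG00000048806, mm10 chromosome 4, 88522025 to 88522774, minus strand) encodes interferon beta, the type I ligand that many non–immune cells make first. Its RNA was listed at 0 in HM_Ctrl with 0 fragments, with an exact upper limit of 0.294 FPKM. The floor of 3 fragments used for the fold bound below stands for 0.239 FPKM. Ifnb1 was at 3.43 in HM_DFX (37 fragments), 0.0848 in LM_Ctrl (1 fragment) and 3.66 in LM_DFX (60 fragments). Both treated libraries were above both untreated libraries, which were at or near 0, with no overlap of the intervals. The treated levels were still modest, above 33.4% of expressed genes in HM_DFX and 33.0% in LM_DFX, the lowest of the 9 members in each. The gene was at least 14.4-fold higher in HM_DFX than in HM_Ctrl, a bound set against 3 fragments that leaves out the counting error of HM_DFX. The exact 95% lower limit of the ratio was 11.1. In 4T1–LM cells the FPKM ratio was 43.1, but with 1 fragment in the control its counting interval runs from 7.45 to 1732. The treated clones had nearly equal levels, with an HM_DFX to LM_DFX ratio of 0.940 (0.606 to 1.44).

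No other interferon gene was expressed. All 17 other type I ligand genes and all 3 type II and type III ligand genes on the list stayed under an FPKM of 1 in every library. The most read among them was Ifnab with 3 fragments in HM_DFX, followed by Ifna16 with 1 fragment there and Ifng, the type II ligand, with 1 fragment in LM_DFX. The interferon alpha genes are near–identical copies, so fragments from them may be lost or shared in counting, and their levels are uncertain.

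The receptor genes lie close together on chromosome 16. Ifnar1 (ENSMUSG00000022967, mm10 chromosome 16, 91485238 to 91507441, plus strand) encodes the chain that binds TYK2. Its FPKM was 11.5 without and 11.4 with DFX in 4T1–HM cells, and 11.3 without and 14.3 with DFX in 4T1–LM cells. The first 3 libraries lie within counting error of each other, and LM_DFX stands above them with an interval of 13.7 to 15.0. The log2 fold change under DFX was -0.01 in 4T1–HM cells and 0.32 in 4T1–LM cells. The first of these turns to 0.12 with median–ratio scaling of the libraries, so it has no stable direction.

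Ifnar2 (ENSMUSG00000022971, mm10 chromosome 16, 91372783 to 91405589, plus strand) encodes the high–affinity chain that binds JAK1. Its FPKM was 4.79 without and 5.77 with DFX in 4T1–HM cells, and 6.51 without and 8.80 with DFX in 4T1–LM cells. Both 4T1–LM libraries were above both 4T1–HM libraries, though the intervals of HM_DFX (5.11 to 6.50) and LM_Ctrl (5.84 to 7.24) overlap. The log2 fold change under DFX was 0.23 in 4T1–HM cells and 0.38 in 4T1–LM cells. In the treated clones LM_DFX was above HM_DFX by an FPKM ratio of 1.52 (1.32 to 1.76). Another gene on the same strand, Gm21970, shares 315 exonic bases (9.46%) with Ifnar2 and was at 0 in all libraries.

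Jak1 (ENSMUSG00000028530, mm10 chromosome 4, 101152367 to 101265282, minus strand) encodes the kinase shared by type I, II and III interferon receptors and by gp130 receptors. It was the most abundant member in both untreated libraries, at 22.9 FPKM in HM_Ctrl and 24.2 FPKM in LM_Ctrl, above 78.8% and 79.5% of expressed genes. With DFX it was at 33.3 in HM_DFX and 28.8 in LM_DFX. Both treated libraries were above both untreated libraries, by 0.52 on the log2 scale in 4T1–HM cells and 0.24 in 4T1–LM cells. These differences exceed counting error, with FPKM ratios of 1.45 (1.38 to 1.53) and 1.19 (1.13 to 1.25), but stay under the 2-fold call.

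Tyk2 (ENSMUSG00000032175, mm10 chromosome 9, 21104068 to 21131243, minus strand) encodes the kinase bound to IFNAR1. Its FPKM was 6.25 without and 3.66 with DFX in 4T1–HM cells, and 4.06 without and 4.78 with DFX in 4T1–LM cells. HM_Ctrl stands above the other 3 libraries, and the lowest value is HM_DFX. The log2 fold change under DFX was -0.64 in 4T1–HM cells, an FPKM ratio of 0.585 (0.514 to 0.665), and 0.19 in 4T1–LM cells, a ratio of 1.18 (1.04 to 1.33). Tyk2 was the only member that was lower with DFX beyond counting error in a clone. A gene on the opposite strand, 1700084C06Rik, overlaps 554 exonic bases (8.07%) of Tyk2 and was itself at an FPKM of 3.82, 3.71, 3.81 and 1.83 in HM_Ctrl, HM_DFX, LM_Ctrl and LM_DFX. The libraries kept strand, but whether the counting used it is not given in the sources used here.

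Stat2 (ENSMUSG00000040033, mm10 chromosome 10, 128270576 to 128292849, plus strand) encodes the ISGF3 subunit that carries the transactivation domain. Its FPKM was 7.67 (565 fragments) without and 33.4 (2108 fragments) with DFX in 4T1–HM cells, and 4.45 (308 fragments) without and 47.3 (4556 fragments) with DFX in 4T1–LM cells. The untreated and treated libraries are far apart in both clones, and the clones change places: HM_Ctrl was above LM_Ctrl, and HM_DFX below LM_DFX. With DFX the log2 fold change was 1.99 in 4T1–HM cells and 3.15 in 4T1–LM cells. The corresponding FPKM ratios without a pseudocount were 4.35 (3.96 to 4.78) and 10.6 (9.47 to 12.0). Stat2 was the most abundant member in HM_DFX, though its interval of 32.0 to 34.8 overlaps that of Jak1 (32.2 to 34.4).

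Irf9 (ENSMUSG00000002325, mm10 chromosome 14, 55603571 to 55610030, plus strand) encodes the DNA–binding subunit of ISGF3. Its FPKM was 4.31 (389 fragments) without and 16.5 (1278 fragments) with DFX in 4T1–HM cells, and 2.56 (217 fragments) without and 24.8 (2924 fragments) with DFX in 4T1–LM cells. It had the same order of libraries as Stat2. The log2 fold change under DFX was 1.72 in 4T1–HM cells and 2.86 in 4T1–LM cells, with FPKM ratios of 3.83 (3.42 to 4.30) and 9.69 (8.44 to 11.2). A gene on the same strand, Rnf31, shares 123 exonic bases (2.28%) with Irf9 and was at an FPKM of 7.32, 10.8, 5.77 and 12.8 in HM_Ctrl, HM_DFX, LM_Ctrl and LM_DFX.

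Irf1 (ENSMUSG00000018899, mm10 chromosome 11, 53770014 to 53778374, plus strand) encodes an interferon regulatory factor that acts without ISGF3 and is a classic interferon–gamma target with a GAS in its promoter. Its FPKM was 14.6 (973 fragments) without and 30.6 (1750 fragments) with DFX in 4T1–HM cells, and 21.2 (1327 fragments) without and 54.1 (4711 fragments) with DFX in 4T1–LM cells. Each treated library was above both untreated ones, and in both conditions 4T1–LM cells were above 4T1–HM cells. The log2 fold change under DFX was 1.02 in 4T1–HM cells, just inside the 2-fold call, and 1.31 in 4T1–LM cells. The FPKM ratios were 2.10 (1.94 to 2.27) and 2.55 (2.40 to 2.71), so the counting interval of the first reaches below 2. An opposite–strand gene, Gm17334, overlaps 135 exonic bases (3.40%) and was at an FPKM of 2.32 or less. In LM_DFX it was the most abundant of the 9 genes, above 92.0% of expressed genes.

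Socs1 (ENSMUSG00000038037, mm10 chromosome 16, 10783808 to 10785536, minus strand) encodes an inhibitor that blocks JAK1 and TYK2 and tags receptor complexes for degradation. Its FPKM was 3.62 (74 fragments) without and 7.70 (135 fragments) with DFX in 4T1–HM cells, and 7.29 (140 fragments) without and 10.6 (282 fragments) with DFX in 4T1–LM cells. HM_Ctrl was the lowest library, LM_DFX the highest, and the intervals of HM_DFX (6.46 to 9.12) and LM_Ctrl (6.14 to 8.61) overlap almost fully. The log2 fold changes under DFX were 0.91 in 4T1–HM cells and 0.48 in 4T1–LM cells, with FPKM ratios of 2.13 (1.59 to 2.86) and 1.45 (1.18 to 1.79). The ratio of HM_Ctrl to LM_Ctrl was 0.497 (0.369 to 0.663), which lies past 2-fold only without the pseudocount.

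**Figure D2:**
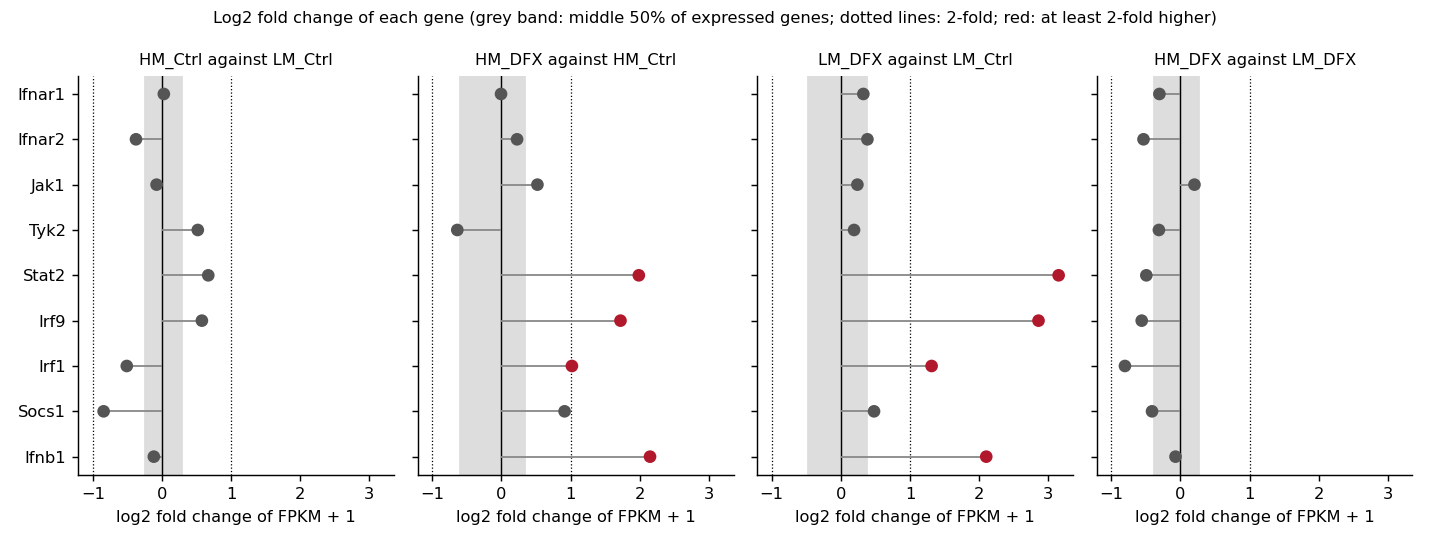
Log2 fold change of FPKM + 1 (horizontal axes) of each of the 9 genes in the 4 comparisons, with the middle 50% of all 12669 expressed genes as a grey band, the 2-fold limits dotted, and genes at least 2-fold higher in red. Stat2, Irf9, Irf1 and Ifnb1 pass the right–hand limit in both DFX comparisons, from 1.02 to 3.15, and no gene passes a limit between the clones.

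Counted over the 9 genes, 0 were at least 2-fold higher and 0 at least 2-fold lower in HM_Ctrl against LM_Ctrl, where 3.65% of expressed genes were higher and 3.15% lower. The median log2 fold change was -0.08 over the members and 0.01 over all expressed genes. For HM_DFX against HM_Ctrl, 4 members were higher and 0 lower, beside 6.93% and 12.4% of expressed genes, and the medians were 0.91 and -0.10. For LM_DFX against LM_Ctrl, again 4 were higher and 0 lower, beside 7.09% and 8.72%, with medians of 0.48 and -0.04. All 4 members called in one clone were called in the other, where 438 of the expressed genes (3.46%) were called higher in both, 49.9% of the genes higher in 4T1–HM cells and 48.8% of those higher in 4T1–LM cells. In the treated clones 0 members were higher and 0 lower, beside 3.31% and 5.05%, and the medians were -0.41 and -0.05. Median–ratio scaling moved the median of all genes in the HM_DFX comparison from -0.10 to 0.00, a shift that also turned the split of called genes from 878 higher and 1568 lower to 1128 and 1277.

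The size of the change under DFX was then compared between the clones, as the log2 fold change in 4T1–HM cells minus that in 4T1–LM cells. Of the 9 members 0 were past 2-fold higher and 2 past 2-fold lower, beside 3.52% and 5.38% of expressed genes. These were Stat2 at -1.16 and Irf9 at -1.14. Their FPKM ratios under DFX were 2.44 times (2.11 to 2.83) and 2.53 times (2.12 to 3.02) as large in 4T1–LM cells as in 4T1–HM cells, counting error alone. Tyk2 had a difference of -0.83, Ifnar1 of -0.33, Irf1 of -0.29 and Ifnar2 of -0.16, while Socs1 had 0.43, Jak1 0.28 and Ifnb1 0.05. The Ifnb1 value is set by the pseudocount, since the controls held 0 and 1 fragments, and became 0.80 with a pseudocount of 0.1. Without a pseudocount Tyk2 lay just past 2-fold, at -1.01. For Stat2 and Irf9 the lower starting level in LM_Ctrl and the higher level in LM_DFX both entered the difference.

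**Figure D3:**
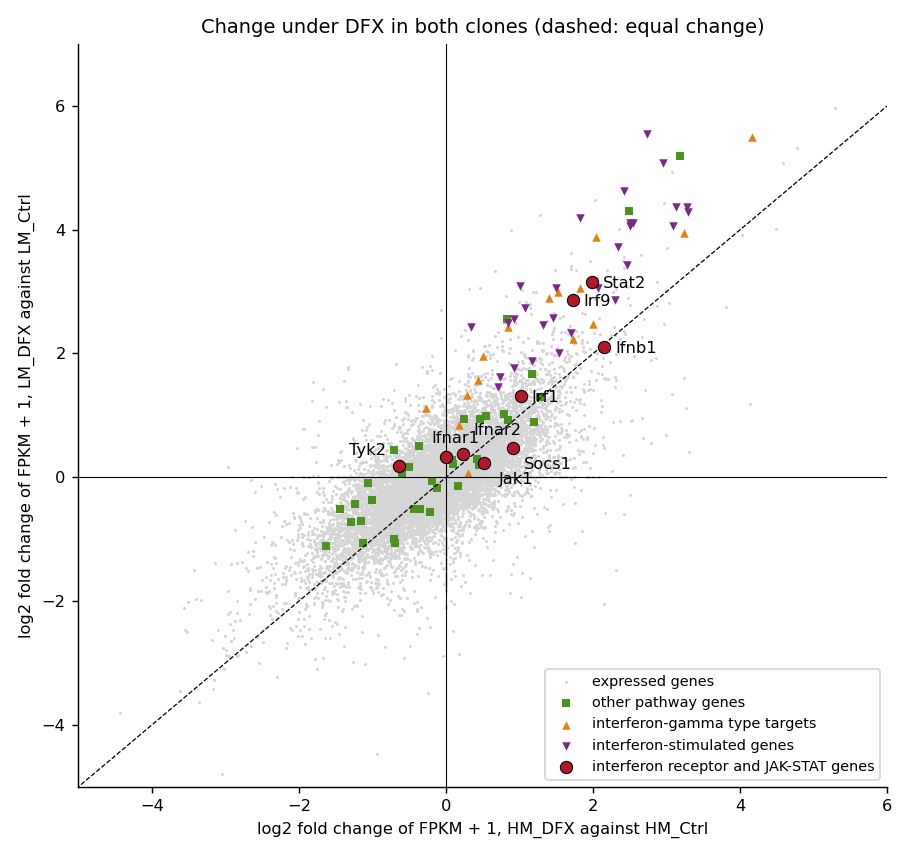
Log2 fold change of FPKM + 1 under DFX in 4T1–HM cells (horizontal) and 4T1–LM cells (vertical), for the 9 members (red), 3 further gene lists and all expressed genes (grey), with equal change dashed. Stat2 and Irf9 lie above the dashed line among the interferon–stimulated genes, Ifnb1 and Irf1 lie near it, and the receptor and kinase genes lie within 2-fold on both axes, with Tyk2 at -0.64 and Jak1 at 0.52 on the horizontal.

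The RNA of Stat2 and Irf9, whose products act in the same complex, kept a nearly constant proportion. The ratio of Stat2 to Irf9 FPKM stayed between 1.74 and 2.02 in all 4 libraries, although both genes were called higher with DFX in both clones.

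**Figure D4:**
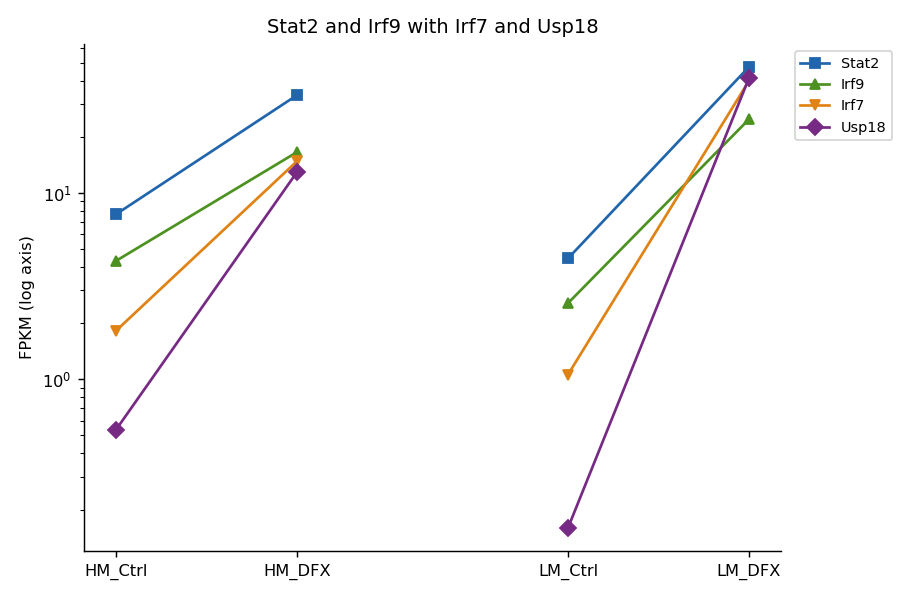
FPKM on a log axis of Stat2, Irf9, Irf7 and Usp18 in the 4 libraries, with lines joining the control and DFX library of each clone. Stat2 and Irf9 run in parallel in both clones, and Irf7 and Usp18 reach 39.8 and 41.2 in LM_DFX.

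Besides the 9 members, a list of 58 further genes of the pathway was read, of which 35 were expressed. Against the shares of all genes given above, 1 of the 35 was at least 2-fold higher and 2 lower in HM_Ctrl against LM_Ctrl. With DFX 5 were higher and 8 lower in 4T1–HM cells, and 6 were higher and 3 lower in 4T1–LM cells. In HM_DFX against LM_DFX 0 were higher and 7 lower. The median log2 fold changes of the list were 0.08, -0.19, 0.17 and -0.32 in these comparisons.

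Among the receptor chains, Ifngr2, the signalling chain for interferon–gamma, was called higher in 4T1–HM cells with DFX at 1.19 and had 0.89 in 4T1–LM cells. Ifnlr1 and Il10rb, the chains of the type III receptor, were lower in HM_DFX than in LM_DFX by -1.19 and -1.12. The Janus kinases outside the type I pathway were both called lower in 4T1–HM cells, Jak2 at -1.29 and Jak3 at -1.44. In 4T1–LM cells they had -0.72 and -0.52, and the difference between the clones was -0.57 for Jak2 and -0.92 for Jak3. These stay within 2-fold on the FPKM + 1 scale, but without the pseudocount the Jak3 ratio under DFX was 2.20 times (1.81 to 2.69) as large in 4T1–LM cells. Jak3 was not alone: Stat5a had 2.79 (2.07 to 3.77), Il10rb 2.32 (1.67 to 3.22) and Ptpn6 2.18 (1.56 to 3.05), among others of the list. The largest the other way was Irf2bp1, at 1.34 times (1.13 to 1.58) as large in 4T1–HM cells. Stat5a and Stat6, which serve prolactin and interleukin–4 receptors, were called lower in 4T1–HM cells at -1.24 and -1.06, against -0.44 and -0.09 in 4T1–LM cells.

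Of the other interferon regulatory factors, Irf7, an interferon–induced factor that drives type I interferon genes, was at an FPKM of 1.82 without and 14.8 with DFX in 4T1–HM cells, and 1.06 without and 39.8 with DFX in 4T1–LM cells. Its log2 fold change was 2.48 in 4T1–HM cells and 4.31 in 4T1–LM cells. Irf5 was also called higher in both clones, at 1.16 and 1.67, and was lower in 4T1–HM than in 4T1–LM cells without DFX (-1.29) and with it (-1.80). Without the pseudocount its FPKM ratio under DFX in 4T1–HM cells was 1.02 times (0.673 to 1.53) that in 4T1–LM cells. Irf3, the factor that starts Ifnb1 transcription once phosphorylated, was called lower in 4T1–HM cells at -1.15 and had -0.71 in 4T1–LM cells. Its FPKM was 9.30 without and 3.64 with DFX in 4T1–HM cells, and 9.12 without and 5.19 with DFX in 4T1–LM cells.

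Among the inhibitors, Usp18, which displaces JAK1 from IFNAR2 and is itself interferon–induced, was at 0.535 without and 12.9 with DFX in 4T1–HM cells, and 0.159 without and 41.2 with DFX in 4T1–LM cells. Its log2 fold change of 5.18 in 4T1–LM cells was above that of every member, and in 4T1–HM cells it was 3.18. Pias4, a SUMO ligase that restrains STAT activity, was called higher in both clones at 1.28 and 1.29. Socs5 was called lower in both, at -1.13 and -1.06. Socs7 was called higher in 4T1–LM cells at 1.03 and had 0.79 in 4T1–HM cells. Ptpn6, the phosphatase SHP-1, was called lower in each comparison, with an FPKM of 5.58 without and 1.12 with DFX in 4T1–HM cells, and 19.8 without and 8.64 with DFX in 4T1–LM cells. Pias3, an inhibitor of STAT3, was called lower in 4T1–HM cells at -1.01 with -0.37 in 4T1–LM cells, and the IRF2 corepressor gene Irf2bp1 in 4T1–LM cells at -1.06 with -0.70 in 4T1–HM cells. Its relative Irf2bp2 was called higher in HM_Ctrl against LM_Ctrl at 1.05. Past 2-fold in the difference of the responses were, among others, Usp18 at -2.01, Irf7 at -1.83 and Irf8, named after its values were seen, at -1.15.

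Genes downstream of the 9 members were counted in a pair of lists. Of 30 interferon–stimulated genes, all expressed, 0 were called in HM_Ctrl against LM_Ctrl, 23 were called higher with DFX in 4T1–HM cells and 30 in 4T1–LM cells, and none lower, beside 6.93% and 7.09% of all expressed genes called higher. Their median log2 fold changes were 1.91 and 3.08. The largest in 4T1–HM cells were Rsad2 (3.29), which encodes the antiviral enzyme viperin, Oasl1 (3.28) and Mx2 (3.13). In 4T1–LM cells Ifit3 (5.54), Ifit3b (5.08) and Ifit1 (4.63), members of a family that binds viral RNA or its partners, were largest. Ifit3 and Ifit3b are close copies, so the split of fragments between them is uncertain. Between the treated clones 16 of 30 were called lower in HM_DFX, beside 5.05% of expressed genes, and 19 of 30 were past 2-fold lower in the difference of responses, beside 5.38%.

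Of 20 genes known as targets of interferon–gamma or IRF1, 15 were expressed. In HM_Ctrl against LM_Ctrl 2 were higher and 1 lower, beside 3.65% and 3.15% of expressed genes. With DFX 8 were called higher in 4T1–HM cells and 13 in 4T1–LM cells, and 0 lower, beside the same 6.93% and 7.09%, with medians of 1.40 and 2.43. Cxcl10, a chemokine for T cells, led in both clones at 4.16 and 5.50, followed by Gbp3 (3.23 and 3.95) and Igtp (2.03 and 3.89), which encode interferon–induced GTPases. Between the treated clones 9 of 15 were called lower in HM_DFX (background 5.05%), and 10 of 15 were past 2-fold lower in the difference of responses (background 5.38%). Levels of Gbp and Igtp family genes are uncertain where fragments fit several near–identical copies.

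Receptor chains that use the same kinases for other cytokines were read in the same way. Of 19 listed, 9 were expressed, with 1 higher and 2 lower in HM_Ctrl against LM_Ctrl and 2 higher with DFX in 4T1–HM cells. In 4T1–LM cells 0 of the 9 were called in either direction. Of all expressed genes 3.65% were called higher and 3.15% lower between the untreated clones. With DFX 6.93% were called higher and 12.4% lower in 4T1–HM cells, and 7.09% and 8.72% in 4T1–LM cells. With only 9 genes the counts are few, and nothing is read from them. In HM_DFX against LM_DFX 2 were lower, beside 5.05% of expressed genes. In the difference of the responses 1 gene, Il4ra, was past 2-fold higher at 1.18, beside 3.52%. Il6st, the shared gp130 chain, was called higher in 4T1–HM cells at 1.35 and had 0.73 in 4T1–LM cells. Il15ra was the other called gene, at 1.02 in 4T1–HM cells, from an FPKM of 0.564 in HM_Ctrl. Csf2rb had -0.79 in 4T1–HM cells, and in 4T1–LM cells Osmr had 0.89 and Il4ra had -0.80.

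The genes whose level followed each member most closely over the 4 libraries were found by the root mean square difference of log2(FPKM + 1) after centring each gene, for the 5 members that spanned at least 2-fold. With 4 points, which share their libraries, this likeness is a description. It holds on the FPKM + 1 scale, which shrinks changes of low genes, so FPKM ratios of neighbours can differ much more. Nearest to Stat2 were Cd274 (0.05), which encodes the immune checkpoint ligand PD-L1, Irgm2 (0.06) and Oas3 (0.14). Cd274 was at an FPKM of 1.15 without and 7.98 with DFX in 4T1–HM cells, and 0.421 without and 12.3 with DFX in 4T1–LM cells, the order of libraries seen for Stat2. Nearest to Irf9 were Ddx60 (0.07), Irgm2 (0.09) and Stbd1 (0.13), and nearest to Ifnb1 were Ifi203 (0.14), Ifi207 (0.14) and Ppp1r27 (0.14). Ifi203 was at an FPKM of 16.3 without and 61.7 with DFX in 4T1–HM cells, where Ifnb1 was at 0 and 3.43.

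Irf1 and Socs1 had other neighbours. Nearest to Irf1 were Fbxw4 (0.07), Hhipl1 (0.08) and Apol7a (0.09). Nearest to Socs1 were Dusp5 (0.08), a phosphatase of ERK, Mcm3 (0.09) and Cited1 (0.11). Within 0.25 of the pattern lay 13 of 10767 expressed protein–coding genes for Stat2, 15 for Ifnb1, 21 for Irf9, 78 for Irf1 and 161 for Socs1. For the members that spanned less than 2-fold such likeness says little, since 1484 to 3281 genes lay within that distance of each of Ifnar1, Ifnar2, Jak1 and Tyk2.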

How the data were processed

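RNA was isolated from 4 cultures of 4T1 clones, 1 library each. Per the labels and methods, the authors selected poly(A) RNA, made directional libraries, sequenced 150-bp read pairs on a NovaSeq, checked them with FastQC, trimmed them with Trimmomatic and aligned them to mm10 with HISAT2, and the submitters' processing notes also list featureCounts. Tool versions, the annotation release and the strand setting are not given in the sources used here. The authors deposited FPKM for 49585 genes, with no pooling. The study called genes with edgeR, which was not repeated because 1 library per condition gives no spread.

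FPKM were multiplied by exon lengths of GENCODE release M21, whose coordinates equal those of 45128 genes. Of 18236 such genes above 0, 96.8% gave fragment numbers that were whole to within 0.02 in each of the 4 libraries. The lengths of Ifnar1, Stat2 and Socs1 were solved from their own values (tolerance 0.005), and 6 members used M21 lengths. Totals ran from 14363065 to 21883853 fragments. Fold changes are log2 ratios of FPKM + 1 (pseudocount 1) over the 12669 genes that reached an FPKM of 1 in any library, called at 2-fold. Intervals of a ratio are exact (Clopper-Pearson, 95%), and intervals of a ratio of ratios use a normal approximation on the log scale. PCR copies were not separable, so all cover counting error only.

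The 9 members, the gene lists and the settings were chosen with earlier results of these data known. Named were all members, every gene of the pathway list past 2-fold in any comparison (1 of them is counted but not reported here), the 3 largest changes per DFX comparison in the other lists, 6 marker genes (and Cd68, Pdgfra and Irf8, chosen after their values were seen), and the 3 genes nearest to each member that spanned 2-fold. Promoter windows came from RefSeq (GRCm38.p6), where all 9 members matched, with 11 windows. The alternatives were a pseudocount of 0.1, no pseudocount, median-ratio and 75th percentile scaling, other filters, and other thresholds. Statistics were tested on simulated data. Python 3.11.15, numpy 2.4.6, pandas 2.3.3, scipy 1.17.1 and matplotlib 3.10.9 were used.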

Additional observations from a re-analysis of the deposited data

Results flagged for a closer look

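Among the genes named above, the following had log2 fold changes under DFX of opposite sign in the 4T1–HM and 4T1–LM clones. Genes of the lists that are not named above were left out, though some of them also had opposite signs. With 1 library per condition the difference was not tested. Tyk2 had -0.64 in 4T1–HM cells and 0.19 in 4T1–LM cells, a difference of -0.83. Ifnar1 had -0.01 and 0.32, a difference of -0.33, and its sign in 4T1–HM cells turns with median–ratio scaling. Il10rb, a chain shared by the interleukin–10 and type III interferon receptors, had -0.37 and 0.50, a difference of -0.87. Il4ra, the interleukin–4 receptor chain, had 0.38 and -0.80, a difference of 1.18. Irf8, an interferon regulatory factor known from myeloid cells, had -0.71 and 0.44, a difference of -1.15.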

How the results depend on the processing

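No paired analysis was possible because each condition is 1 library, which leaves no spread within a clone. A fit with clone and DFX as additive terms, which would leave 1 residual degree of freedom and take any difference in response between the clones as error, was not run. With 1 library per condition none could be left out. Of 179 fold changes of members recomputed under another pseudocount or scaling, 166 stayed within counting error of the reported value, 13 moved further and 0 called values changed sign. The 1 change of sign was Ifnar1 in HM_DFX against HM_Ctrl, from -0.01 to 0.12 with median–ratio scaling. Of the members, without a pseudocount 1 (Socs1) was past 2-fold in HM_Ctrl against LM_Ctrl in place of 0. In HM_DFX against HM_Ctrl 5 members, with Socs1, were called in place of 4 with a pseudocount of 0.1, without one and with median–ratio scaling. In the difference of the responses 3, with Tyk2 at -1.01, were past 2-fold in place of 2 without a pseudocount. At 1.5-fold 2 members were past the threshold in HM_Ctrl against LM_Ctrl, 1 in HM_DFX against LM_DFX and 3 in the difference of the responses. Of the 12669 expressed genes 1329 were higher and 1102 lower at 1.5-fold between the untreated clones. Between the treated clones 1260 were higher and 1848 lower, and in the difference 1238 and 2078. With so few members nothing is read from these counts. At 4-fold 1 member was past the threshold in HM_DFX against HM_Ctrl and 0 in the difference of the responses. Of all expressed genes 111 were higher and 166 lower there, and 50 and 59 in the difference. Of the pathway list, 3 genes were past 2-fold in HM_Ctrl against LM_Ctrl, 5 with a pseudocount of 0.1 and 6 without one. At 1.5-fold the list had 6 genes between the untreated clones and 20 under DFX in 4T1–HM cells. It had 17 under DFX in 4T1–LM cells and 11 between the treated clones. At 4-fold these counts were 0, 2, 3 and 1. Under DFX 2031 expressed genes were higher and 3297 lower at 1.5-fold in 4T1–HM cells, and 2088 and 2528 in 4T1–LM cells. At 4-fold 42 were higher and 55 lower between the untreated clones. In 4T1–LM cells under DFX they were 180 and 134, and between the treated clones 36 and 59. Over all expressed genes, a pseudocount of 0.1 raised the genes past 2-fold in HM_Ctrl against LM_Ctrl from 462 higher and 399 lower to 883 and 674, in HM_DFX against HM_Ctrl from 1568 lower to 2397, in LM_DFX against LM_Ctrl from 1105 lower to 1721, in HM_DFX against LM_DFX from 419 and 640 to 810 and 1183, and in the difference of the responses from 446 and 682 to 744 and 1325. Without a pseudocount, over the genes with recovered fragments, HM_DFX against LM_DFX had 664 higher and the difference 1066 lower. Low counts limit Ifnb1 and Socs1 most, with 0 and 1 fragments of Ifnb1 and 74 of Socs1 in the thinnest libraries.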
